A study of Mus musculus with 2 samples.

Results

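Suz12 was mapped at 45 genes of the Wnt pathway, comprising 19 Wnt ligand genes, 12 receptor genes (10 of the Frizzled family, Lrp5 and Lrp6), 13 genes for secreted modulators (the Sfrp genes and Frzb, the Dkk genes and the Rspo genes) and Axin2, a target of the pathway. The genes were taken from these families by name, with earlier results of these data known. All 45 were found among 21631 protein-coding genes of RefSeq on the chromosomes with peaks (mouse build GRCm38). A gene was counted as having a Suz12 peak when a peak overlapped its body, the stretch between its outer annotated ends, or lay within 2.5 kb of it. Of the 3373 peaks in the deposited list, 38 (1.13%) met this rule for at least 1 of the 45 genes.

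The data come from chromatin immunoprecipitation and sequencing with a rabbit antibody against Suz12 in E14, an embryonic stem cell line of the mouse. The library analysed was from wild-type cells (strain E14-WT) in serum medium, differentiated for 72 h in a medium that lacked leukemia inhibitory factor and contained 1 µM all-trans-retinoic acid (ATRA). The other library of the series, from the Suz12-KO strain (Suz12-/-) at 0 h and in serum medium, was not analysed here. With 1 library there is no replicate error, no p-value and no comparison of conditions, the peaks of undifferentiated wild-type cells were not analysed here, and the identity of the cells cannot be checked from a list of peaks.

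Suz12 is a core subunit of Polycomb Repressive Complex 2, the enzyme complex that methylates lysine 27 of histone H3 at silent developmental genes, in embryonic stem cells mostly at CpG islands. Wnt proteins are secreted, lipid-modified ligands that bind Frizzled receptors, with Lrp5 or Lrp6 as co-receptor in the branch that stabilises beta-catenin. Sfrp proteins and Frzb bind Wnt proteins outside the cell, Dkk1, Dkk2 and Dkk4 bind the Lrp co-receptors, and R-spondins act through Lgr receptors to keep Frizzled receptors on the cell surface. In the early embryo the pathway drives formation of the primitive streak and mesoderm and patterns the neural tube.

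The title of the series concerns recruitment to CpG islands, so the bases before the annotated start are shown for 9 of the genes, chosen after their peaks were known. They include genes with a high-scoring peak, a close relative or neighbour without one, and Axin2. Each line gives the 250 bases that end just before the RefSeq start (GRCm38.p6), 5′ to 3′ on the strand of the gene, with each CG dinucleotide in capitals. The positions are chr15:98778151-98778400 on the minus strand for Wnt10b, chr15:98789607-98789856 on the plus strand for Wnt1, chr11:59290752-59291001 on the minus strand for Wnt3a and chr11:59306680-59306929 on the plus strand for Wnt9a. For the others they are chr5:128600856-128601105 (plus) for Fzd10, chr1:59481897-59482146 (plus) for Fzd7, chr4:124986180-124986429 (plus) for Rspo1, chr19:30549497-30549746 (minus) for Dkk1 and chr11:108920099-108920348 (plus) for Axin2.
Wnt10b: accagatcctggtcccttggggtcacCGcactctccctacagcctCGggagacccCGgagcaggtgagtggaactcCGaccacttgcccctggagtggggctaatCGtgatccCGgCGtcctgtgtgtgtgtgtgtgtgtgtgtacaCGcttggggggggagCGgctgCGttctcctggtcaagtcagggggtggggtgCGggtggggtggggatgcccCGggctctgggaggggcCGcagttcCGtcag
Wnt1: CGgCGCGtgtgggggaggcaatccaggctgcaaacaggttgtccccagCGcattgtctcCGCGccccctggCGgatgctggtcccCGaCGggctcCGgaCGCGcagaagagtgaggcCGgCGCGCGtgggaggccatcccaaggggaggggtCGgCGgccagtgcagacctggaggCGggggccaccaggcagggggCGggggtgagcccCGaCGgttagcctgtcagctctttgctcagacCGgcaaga
Wnt3a: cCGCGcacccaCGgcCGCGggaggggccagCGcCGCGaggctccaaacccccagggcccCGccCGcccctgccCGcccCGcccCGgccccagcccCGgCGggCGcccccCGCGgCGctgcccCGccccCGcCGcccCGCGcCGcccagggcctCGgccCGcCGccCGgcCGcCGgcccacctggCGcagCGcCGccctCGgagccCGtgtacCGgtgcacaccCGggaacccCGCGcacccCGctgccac
Wnt9a: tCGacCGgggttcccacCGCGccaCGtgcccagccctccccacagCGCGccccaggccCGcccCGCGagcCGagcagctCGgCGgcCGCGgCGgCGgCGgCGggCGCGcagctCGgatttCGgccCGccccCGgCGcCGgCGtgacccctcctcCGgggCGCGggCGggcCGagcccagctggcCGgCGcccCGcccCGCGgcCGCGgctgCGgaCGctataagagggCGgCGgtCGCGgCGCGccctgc
Fzd10: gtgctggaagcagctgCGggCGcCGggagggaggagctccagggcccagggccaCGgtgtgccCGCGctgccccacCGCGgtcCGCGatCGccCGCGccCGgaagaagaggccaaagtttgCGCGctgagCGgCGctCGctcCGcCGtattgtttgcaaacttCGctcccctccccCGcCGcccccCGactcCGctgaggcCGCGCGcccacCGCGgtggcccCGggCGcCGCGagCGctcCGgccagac
Fzd7: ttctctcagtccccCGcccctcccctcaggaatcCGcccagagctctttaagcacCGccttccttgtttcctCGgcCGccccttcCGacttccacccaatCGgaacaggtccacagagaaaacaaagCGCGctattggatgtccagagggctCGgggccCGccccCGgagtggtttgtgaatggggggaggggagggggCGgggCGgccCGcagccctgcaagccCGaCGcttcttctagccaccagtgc
Rspo1: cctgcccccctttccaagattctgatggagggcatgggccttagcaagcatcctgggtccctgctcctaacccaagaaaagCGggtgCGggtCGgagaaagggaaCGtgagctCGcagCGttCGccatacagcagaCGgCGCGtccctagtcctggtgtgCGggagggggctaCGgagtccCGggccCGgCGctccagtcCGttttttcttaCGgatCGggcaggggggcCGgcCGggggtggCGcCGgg
Dkk1: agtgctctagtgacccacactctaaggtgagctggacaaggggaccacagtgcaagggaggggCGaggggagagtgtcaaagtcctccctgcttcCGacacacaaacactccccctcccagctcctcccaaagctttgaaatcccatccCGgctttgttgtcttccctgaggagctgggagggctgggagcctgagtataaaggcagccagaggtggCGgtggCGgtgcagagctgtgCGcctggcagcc
Axin2: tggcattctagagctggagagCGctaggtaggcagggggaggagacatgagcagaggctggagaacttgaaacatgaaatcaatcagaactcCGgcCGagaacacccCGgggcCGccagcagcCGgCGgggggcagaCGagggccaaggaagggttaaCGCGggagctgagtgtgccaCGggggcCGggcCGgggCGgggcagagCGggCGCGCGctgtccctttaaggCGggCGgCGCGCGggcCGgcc

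The 5 stretches from Wnt10b, Wnt1, Wnt3a, Fzd10 and Rspo1 lay wholly under a Suz12 peak, and the other 4 had no base under a peak. The covered stretches held 14 CG dinucleotides at Wnt10b, 23 at Wnt1, 41 at Wnt3a, 37 at Fzd10 and 22 at Rspo1. Of those without a peak, Wnt9a held 48, Axin2 24, Fzd7 17 and Dkk1 6. Over 21045 promoters of protein-coding genes in the same table the median was 10 per 250 bases, with quartiles of 3 and 19. The stretch richest in CG of the 9, that of Wnt9a, had no peak, and Dkk1 was the only 1 of the 9 below the median. Because the 9 were chosen with their peaks known, a relation between CG content and peaks was not tested. The ratio of observed to expected CG in the covered stretches was 0.52 at Wnt10b, 0.73 at Wnt1, 0.93 at Wnt3a, 1.02 at Fzd10 and 0.80 at Rspo1. In those without a peak the ratio was 1.09 at Wnt9a, 0.86 at Axin2, 0.65 at Fzd7 and 0.26 at Dkk1. The median over all these promoters was 0.54.

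A comparison of CG content between all members with and without a peak is void, because only 29 of the 45 genes (64.4%) have a promoter sequence in the table used. The TCF/LEF words CTTTGAA and CTTTGAT, which bear the core of the site bound by the nuclear effectors of Wnt signalling, were searched on both strands of the 250 bases. Of the 9 stretches only Dkk1 held either word, and 6.77% of all promoter stretches of that length did. The words describe letters in this window only.

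Most Wnt ligand genes had a Suz12 peak in the differentiating cells. A peak was present at 27 of the 45 genes (60.0%, exact 95% binomial interval 44.3 to 74.3), against 13.1% of all protein-coding genes. By role, it was present at 16 of 19 ligands (84.2%, 60.4 to 96.6), 4 of 12 receptors (33.3%, 9.92 to 65.1) and 7 of 13 modulators (53.8%, 25.1 to 80.8). Axin2 had none. The interval of the receptors contains the share of all genes, those of the ligands and the modulators lie above it, and the intervals of the 3 roles overlap. The difference between roles was not tested, since there is 1 library and neighbouring genes share peaks.

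**Figure D1:**
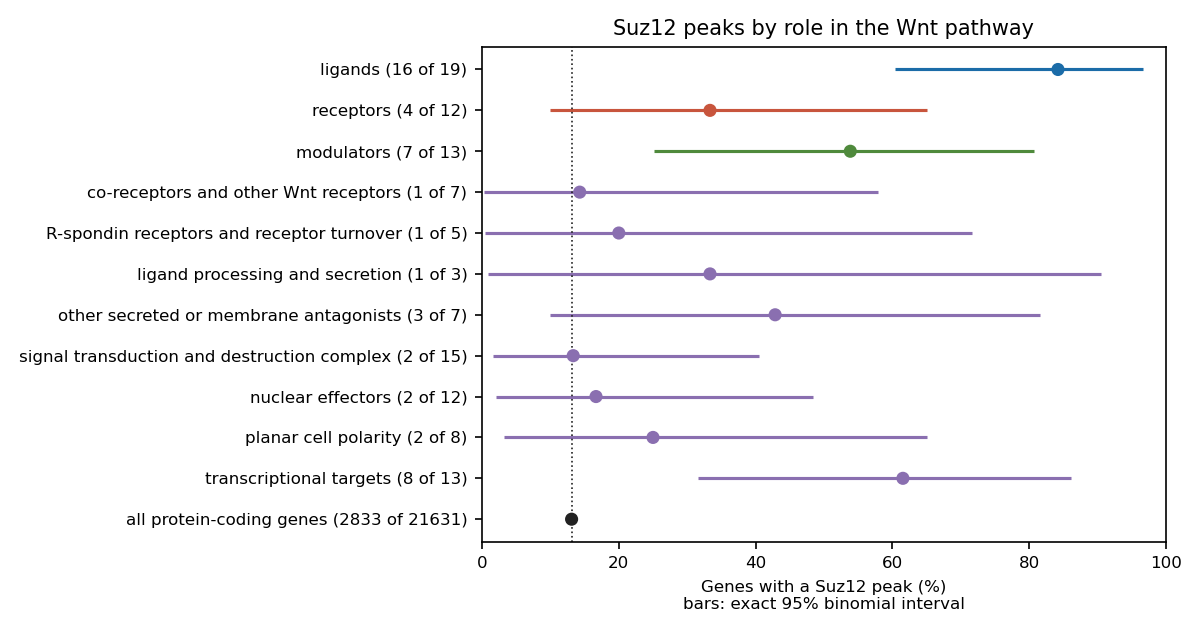
Share of genes with a Suz12 peak within 2.5 kb of the gene body (x axis, percent) by role in the Wnt pathway, with the counts in the row labels. Points are shares, bars are exact 95% binomial intervals, and the dotted line is the share of all protein-coding genes; ligands stand at 84.2% and the signal transduction genes at 13.3%.

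The same 27 genes had a peak within 2.5 kb of either gene end, where the share of all genes was 11.7%. The threshold of 2.5 kb decided no member: at each of the 27 genes a peak overlapped the body itself, and the closest gene outside the rule was Wnt9a, 15047 bp from a peak. Of the 18 genes without a peak, 15 lay over 100 kb from the nearest one, and Fzd8 was farthest at 1489618 bp. The members had a median length of 22702 bp, against 17329 bp for all genes. When all genes were split by length into 3 sets of near-equal size, a peak was present at 10.2% of the shortest, 10.5% of the middle and 18.5% of the longest set. The members in these sets had a peak at 7 of 15, 9 of 11 and 11 of 19.

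The authors give each peak a score whose scale is not stated in the file, and the scores are used here only to rank peaks within the list. They run from 150.3 to 3233 with a median of 572, and 325 peaks share the value 3100, so that scores from 3100 upward are treated as equal. The median best score was 1853 at the 16 ligands, 1109 at the 4 receptors and 681 at the 7 modulators, against 663 at all 2833 genes with a peak. Scores of 3100 or more occurred at 4 members, all of them ligands, against 1.71% of all genes. Among genes with a peak the share was 14.8% for the members and 13.03% for all genes, so at this top level the members stood close to the background. Best scores above 1000 occurred at 11 ligands, 2 receptors and 2 modulators, and the share of all genes above 1000 was not computed. Wnt3 and Wnt9b share their best peak (score 1853), which counts for both genes here and sets the ligand median.

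Ligand genes also carried longer stretches of Suz12. The length covered by peaks within the body and 2.5 kb on each side had a median of 5181 bp at the ligands with a peak (range 1475 to 8529), 2826 bp at the receptors (2243 to 4189) and 2019 bp at the modulators (1156 to 3180). The median over all genes with a peak was also 2019 bp. More than 1 peak was listed at 8 of the 16 ligands and, among the other members, at Sfrp1. Some of these peaks lay close together, such as those of Wnt5a (77 bp apart) and Wnt11 (362 bp apart). The share of all genes with more than 1 peak was not computed, so this count is not shown to be particular to the ligands. A peak shared by Wnt3 and Wnt9b counts for both. Median lengths of the genes with a peak were 22387 bp for ligands, 3683 bp for receptors and 35427 bp for modulators. The list gives no reads, so its depth is unknown and binding too weak for the authors' peak calling is not seen.

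**Figure D2:**
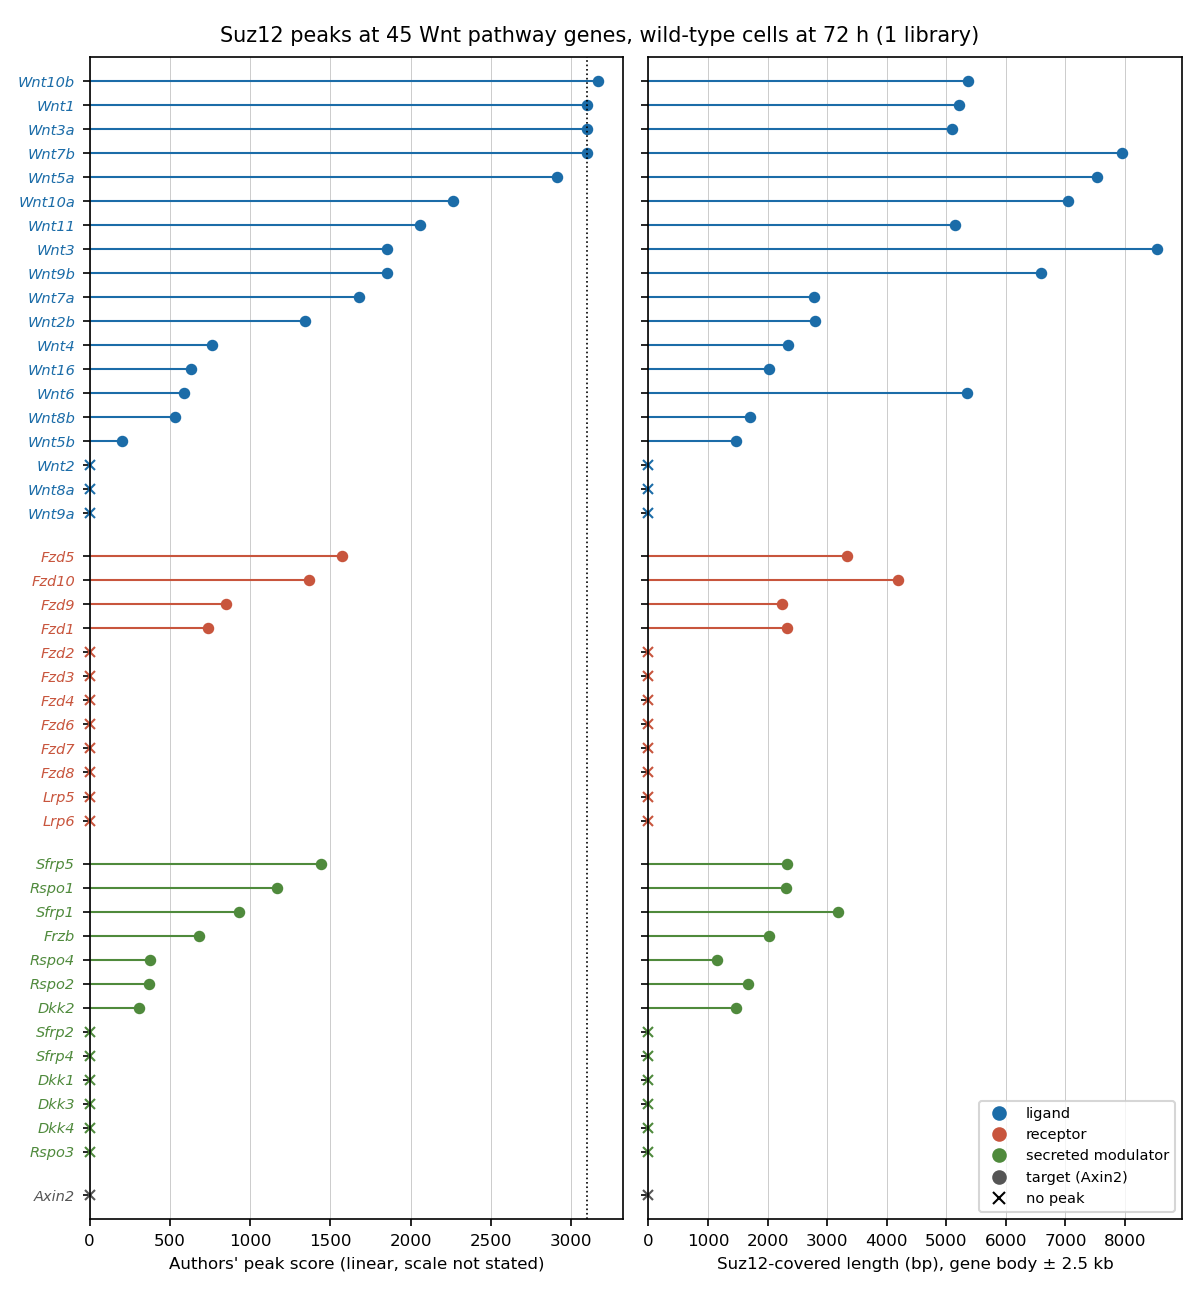
Best peak score (left, linear axis) and length covered by Suz12 peaks (right, bp, gene body and 2.5 kb on each side) at each of the 45 genes, ordered by score within each role; crosses mark genes without a peak and the dotted line the value shared by 325 peaks. Ligands reach 3165 and 8529 bp, receptors 1571 and 4189 bp, modulators 1439 and 3180 bp.

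Among the ligands, the 4 genes at the top score were Wnt10b, Wnt1, Wnt3a and Wnt7b. Wnt10b, a ligand of skin, mammary gland and bone, had a peak of 4180 bp (chr15:98775570-98779749, score 3165) and a small peak of 1188 bp inside the gene (159.99). Wnt1, which specifies the midbrain and hindbrain border, was covered over its whole length of 3974 bp by a peak of 5210 bp (chr15:98788817-98794026, score 3100). At Wnt3a, a ligand of the primitive streak and tail bud, the peak spanned 3802 bp at the start (chr11:59288001-59291802, score 3100), and a second of 1290 bp lay inside the gene (169.7). Wnt7b, a ligand of lung and kidney, had the widest peak of the 45 genes, 7946 bp over the higher-numbered end (chr15:85575617-85583562, score 3100).

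A next group of 7 ligands, which includes Wnt3 and Wnt9b below, had best scores between 1344 and 2909.5. Wnt5a, the main ligand of the branch that does not act through beta-catenin, had peaks of 3630 bp (chr14:28504431-28508060, 2909.5) and 3905 bp (2549) only 77 bp apart, which together covered 32.4% of the gene. Wnt10a, a ligand of teeth and skin appendages, had 3 peaks with scores of 2263, 318 and 498 that covered 49.6% of it. Wnt11, another ligand of the beta-catenin-independent branch, has 2 annotated starts with a peak over each, of 3265 bp (2055) and 1886 bp (438), 362 bp apart. Wnt7a, which patterns the dorsal limb, had a peak of 2787 bp (1679.97) and Wnt2b a peak of 2796 bp (1344), each over the start. The ligands with multiple peaks therefore reached their covered length in different ways, as a near-continuous stretch at Wnt5a and as separate peaks at Wnt10a.

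Lower scores, between 199.9 and 765, were found at 5 ligands, which include Wnt6 below. Wnt4, required in kidney and female gonad, had a peak of 2335 bp (765), and Wnt16 one of 2017 bp (632) that began 40 bp before the start. Wnt5b, whose table entry has 3 starts, had a peak of 1475 bp at the outermost start only, with the lowest best score of all members (199.9), and this peak also overlapped the predicted coding gene Gm52875. Wnt8b, a ligand of the forebrain, was the only member with a known start and a peak whose peak did not lie within 2.5 kb of that start. Its peak of 1701 bp (529) began 17205 bp into the gene. No peak was listed at Wnt2, a ligand of lung and placenta, at Wnt8a, an early embryonic ligand, or at Wnt9a. The nearest peaks to Wnt2 and Wnt8a were 137280 bp and 312990 bp away.

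Several Wnt genes lie next to another Wnt gene, and the peaks of the 4 pairs followed different patterns. Wnt1 and Wnt10b, 11650 bp apart on chromosome 15 and transcribed away from each other, each had a top-scoring peak of its own and shared none. Wnt3a and Wnt9a, 16097 bp apart on chromosome 11 and also divergent, differed. Wnt3a had a top-scoring peak over its start and Wnt9a had no peak. The 250 bases before the start held 41 CG dinucleotides at Wnt3a and 48 at Wnt9a. Wnt3 and Wnt9b, whose annotated bodies overlap by 1098 bp on chromosome 11, shared 1 peak.

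The shared peak of Wnt3 and Wnt9b spanned 4462 bp (chr11:103770705-103775166, score 1853) and reached from 3470 bp before the start of Wnt3, a ligand required for the primitive streak, to 991 bp after it. It lay at the outer end of the annotated body of Wnt9b, a ligand that induces kidney tubules, and reached 25345 bp before the start listed for that gene. The start of Wnt9b had a peak of its own, of 2128 bp (887). Inside Wnt3 there were peaks of 1262 bp (365) and of 3775 bp (1585), the latter beginning 34375 bp after the start. Without the shared peak Wnt9b would thus keep a peak of lower score, and Wnt3 would keep 2 peaks away from its start.

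Wnt6 and Wnt10a, 6696 bp apart on chromosome 1, had 3 peaks each and shared none. At Wnt6, peaks of 1173 bp (188) and 1036 bp (276) lay 14 bp apart at the start, and its best peak, of 3137 bp (588), began 9880 bp after the start. At Wnt10a the best peak, of 4384 bp (2263), overlapped the lower-numbered end, which faces Wnt6. Of the 8 genes in the 4 pairs, 7 had a peak, and of the other 11 ligands 9 did.

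**Figure D3:**
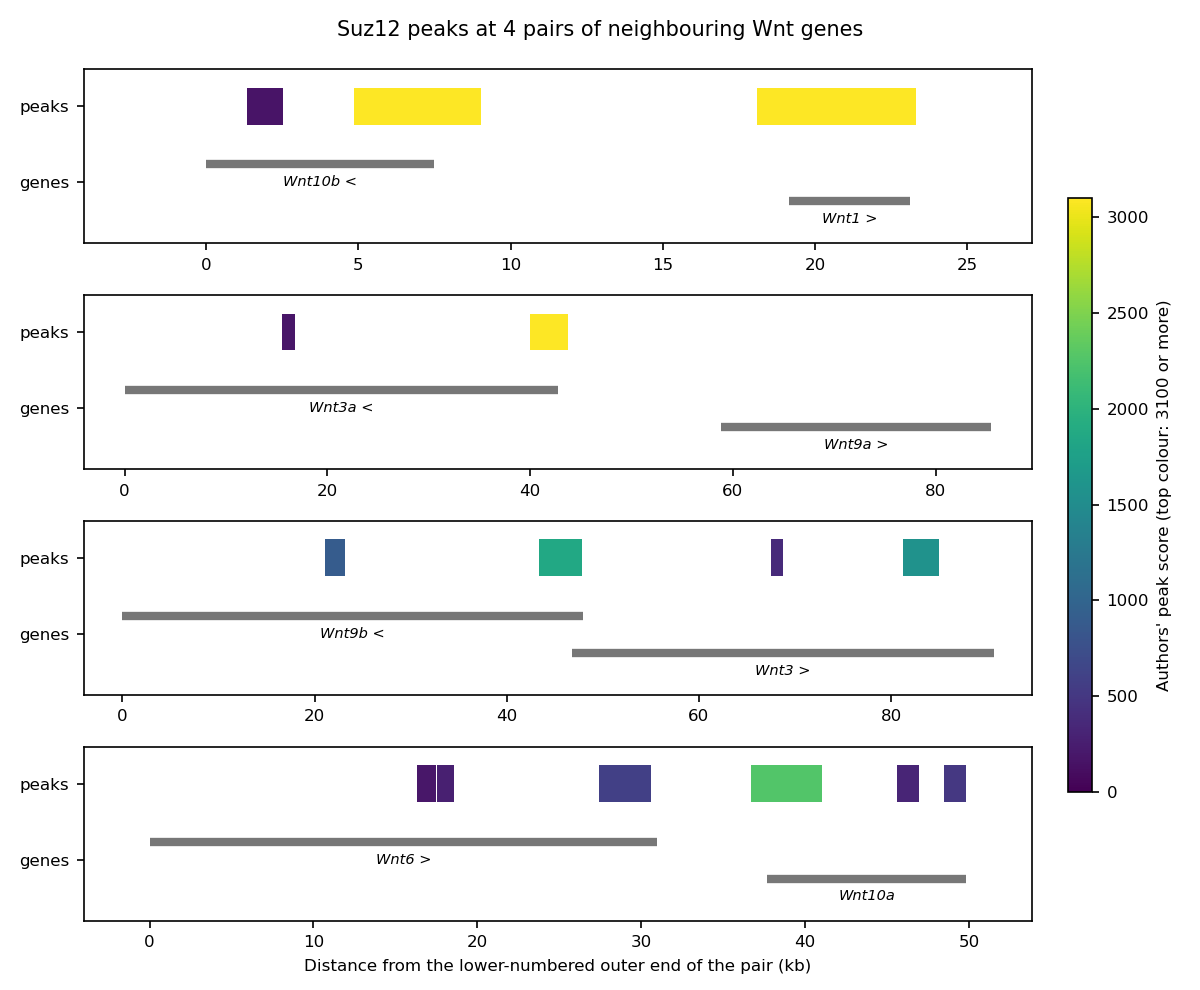
Suz12 peaks (upper row of each panel, coloured by the authors' score) and annotated gene bodies (grey, with the direction of transcription where the table gives it) at the 4 neighbouring Wnt pairs; the x axis is distance in kb and its scale differs between panels. Top-scoring peaks stand at Wnt10b, Wnt1 and Wnt3a, Wnt9a has none, and a peak at the overlap of Wnt9b and Wnt3 belongs to both.

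Of the receptor genes, 4 of the 10 Frizzled genes had a peak and neither Lrp co-receptor gene did. The genes with a peak were Fzd5, which acts in eye and yolk sac (score 1571), Fzd10 (1369), Fzd9, expressed in the hippocampus (849), and Fzd1 (737), with 1 peak each. These genes are short, between 2110 and 7193 bp, and a peak covered 45.7% of the body at Fzd5, 53.0% at Fzd1, 64.8% at Fzd10 and 80.5% at Fzd9. Peaks at ligands covered a median of 13.8% of the gene and those at modulators 4.01%, in genes with a peak whose median lengths were 22387 and 35427 bp against 3683 bp for these receptors.

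The receptor genes without a peak were Fzd2, Fzd3, Fzd4, Fzd6, Fzd7, Fzd8, Lrp5 and Lrp6. Some were as short as those with a peak, such as Fzd8 (3346 bp), Fzd2 (3628 bp) and Fzd7 (4809 bp). Distances to the nearest peak ran from 56968 bp at Fzd2 and 64945 bp at Lrp6 through 158322 bp at Fzd6, 169842 bp at Lrp5, 555264 bp at Fzd7, 600558 bp at Fzd3 and 891883 bp at Fzd4 to that of Fzd8. Lrp5 and Lrp6 were the longest receptor genes, at 101761 and 120438 bp. Fzd10 and Fzd7, whose bases before the start are printed above, held 37 and 17 CG dinucleotides there, both more than the median promoter.

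Among the modulators, the genes for Wnt-binding antagonists had a peak at 3 of 5 (60.0%, 14.7 to 94.7), against 13.1% of all genes. The genes with a peak were Sfrp5 (chr19:42200535-42202859, 2325 bp, score 1439), Sfrp1 and Frzb (2019 bp, 681). Sfrp1 had a peak of 1942 bp (932) over its lower-numbered end. Another of 1238 bp (159) lay just outside the gene, 56 bp from the first peak. Sfrp2 and Sfrp4 had none, and their nearest peaks were 415971 and 673986 bp away.

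R-spondin genes had a peak at 3 of 4 and Dkk genes at 1 of 4. Rspo1, which acts in ovary development, had a peak of 2316 bp over its start (1169), whereas the peaks at Rspo4 (1156 bp, 379) and Rspo2 (1676 bp, 370.3) scored below the list median of 572. Rspo3, a vascular and placental R-spondin, had none within 304366 bp. Dkk2 had a peak of 1476 bp over its start (309), also below the median. Dkk1, an antagonist needed for head formation, Dkk3, a divergent family member, and Dkk4 were 370368, 794269 and 345664 bp from the nearest peak. For Axin2, a negative feedback gene that is widely used as a readout of beta-catenin signalling, that distance was 573961 bp.

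Where a start and strand were known, the peaks lay over the start and reached mostly into the gene. Of the 29 members with a start in the promoter table, 22 had a peak, and at 20 of these a peak covered a start. This held for 12 of 13 ligands, 3 of 4 receptors and 5 of 5 modulators. The exceptions were Wnt8b, described above, and Fzd1, whose peak began 94 bp after the start. The 21 peaks over a start reached a median of 724 bp before it and 1697 bp after it, and 16 of them reached farther after it than before. The matching counts over all genes with a peak were not computed, so this placement is not shown to be particular to the members. Of all protein-coding genes, 2833 had a peak by the body rule and 2540 had one within 2.5 kb of either end. Wnt3 had the longest reach before a start (3470 bp), followed by Fzd10 (2253 bp), and Wnt1 the longest after it (4169 bp).

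**Figure D4:**
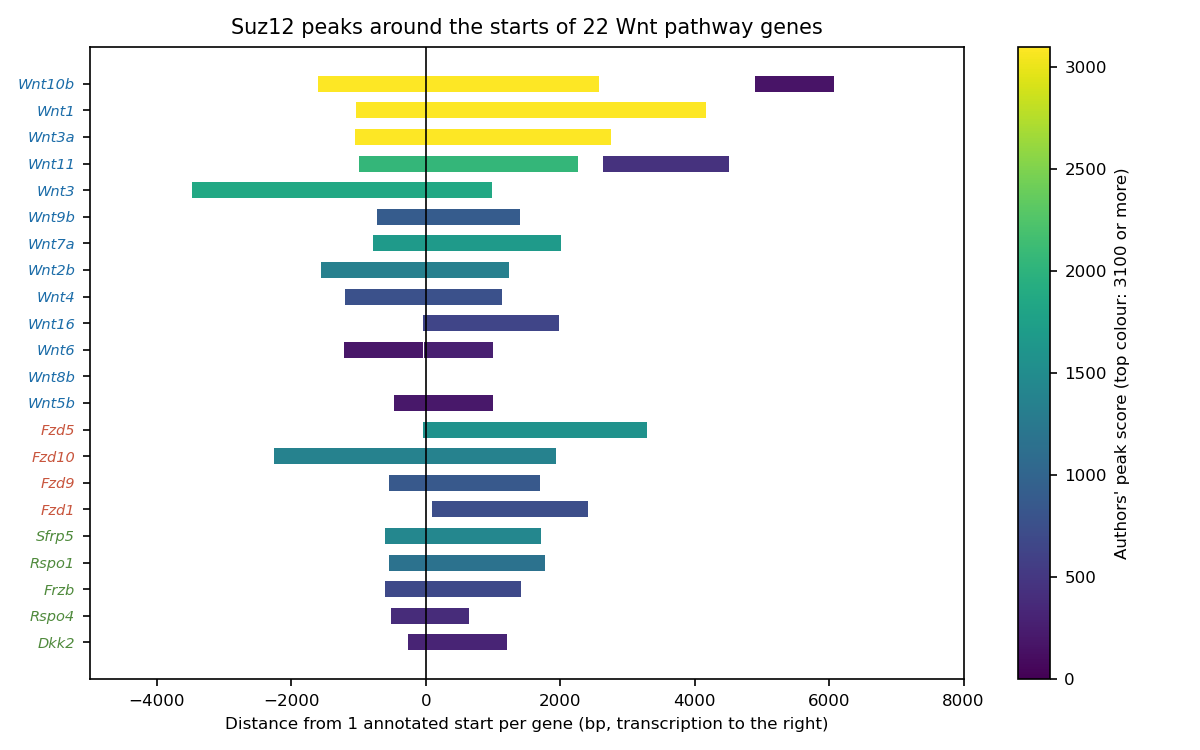
Suz12 peaks at the 22 members with a peak and an annotated start, as distance in bp from 1 start per gene with transcription to the right (for Wnt11 and Wnt5b, which have several, the start under the best peak), coloured by the authors' score. At 20 genes a peak covers the start, at Fzd1 it begins 94 bp after it, and the peak of Wnt8b lies outside the range drawn.

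Non-coding genes shared some of these peaks. At 6 members the peak also overlapped a long non-coding RNA gene, namely Gm30437 at Wnt7a, AU022754 at Wnt7b, Gm32099 at Wnt10a, Gm33770 at Wnt11, Fzd10os at Fzd10 and Gm12930 at Rspo1. These peaks cannot be assigned to the coding or the non-coding gene from the list. How often the peaks of the whole list overlap such a gene was not computed. Apart from Gm52875 at Wnt5b, no member's peak lay within 2.5 kb of a protein-coding gene outside the 45.

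The rest of the pathway was examined with a list of 67 other genes in 8 roles, 3 of them on more than 1 role's list, of which 19 (28.4%, 18.0 to 40.7) had a peak. The transcriptional targets had a peak at 8 of 13 (61.5%, 31.6 to 86.1), and only here did scores of 3100 occur, at Sp5 (6366 bp), Cdx2 (5639 bp) and T (4229 bp), the last of which is the mesoderm factor Brachyury and shares its peak with the predicted gene LOC115486424. The other targets named by score were Notum (3046), which removes the lipid of Wnt proteins, and Mixl1 (2037). Many of these targets are themselves developmental transcription factors, and whether this bears on their peaks was not tested. Myc, Lgr5, Tbx6, Msgn1 and Nkd1 had no peak. Axin2, also a target, was counted with the members and is not among these 13, and it had no peak either. The 67 genes were chosen with earlier results of these data known. The share and interval of the targets therefore describe the listed genes only, and not targets of the pathway in general.

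Genes for signal transduction and for nuclear effectors had shares with intervals that contain the share of all genes. Signal transduction genes had a peak at 2 of 15 (13.3%, 1.66 to 40.5), against 13.1% of all genes, at Nkd2 (347) and inside Apc2 (319). The genes for beta-catenin (Ctnnb1), Apc, Axin1, Gsk3b and the Dishevelled proteins Dvl1, Dvl2 and Dvl3 had none. Of these, Axin1 and Dvl1 lay only 4822 bp and 5081 bp from a peak, so their calls depend on the distance used. Nuclear effectors had a peak at 2 of 12 (16.7%, 2.09 to 48.4), at Lef1 (1870.2) and Pygo1 (241), and not at Tcf7, Tcf7l1 or Tcf7l2.

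Planar cell polarity genes had a peak at 2 of 8 (25%, 3.19 to 65.1), at Celsr3 (729.7) and Celsr1 (407), which encode cadherins of the cell surface. Antagonists outside the member list had a peak at 3 of 7 (42.9%, 9.90 to 81.6), namely Sost (1213), Tpbg (247) and Draxin (164), the last with a peak also within 2.5 kb of Mad2l2, and none at Wif1 or Cer1. Co-receptors and other Wnt receptors had 1 of 7 (14.3%, 0.36 to 57.9), at Kremen2 (588), where the best peak also lay within 2.5 kb of Paqr4, and none at Ror1, Ror2 or Ryk. R-spondin receptors and their turnover genes had 1 of 5 (20.0%, 0.51 to 71.6), at Lgr6 (429), and the ligand processing and secretion genes 1 of 3 (33.3%, 0.84 to 90.6), at Notum, with none at Porcn or Wls. All these intervals contain the 13.1% of all genes, and no difference between these roles was tested.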

How the data were processed

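Suz12 immunoprecipitation from 1 wild-type library at 72 h was used. The authors' tools were Bowtie and MACS, with build GRCm38 (mm10), per the submitters' processing notes. Their versions and settings, the control, any pooling and the read depth are not stated in the labels or the file. The deposited list has 3373 peaks, each with a start, an end and a score per peak of unstated scale. The 45 members and the pathway list were chosen with earlier results of these data known.

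Peaks were placed on RefSeq genes (GRCm38.p6), a table with outer gene ends but no exons or introns. Starts and strand came from the RefSeq promoter table (250 bases before and 50 after each start), which holds 29 of the 45 members; for the other 16 both ends were used as possible starts. Shares have exact (Clopper-Pearson) 95% intervals for counting error, in which genes count as independent. The overlap code was tested on simulated data. Python 3.11.15, pandas 2.3.3, numpy 2.4.6, scipy 1.17.1 and matplotlib 3.10.9 were used. All 45 members are named, with up to 5 other pathway genes per role in order of score. Distances, gene ends and stricter scores were tried as alternatives. The planned CpG comparison was not made, since the table holds too few members. The knockout library was not analysed here.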

Additional observations from a re-analysis of the deposited data

How the results depend on the processing

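Of 52 alternative values for 10 results, 50 stayed within 1.5 times the main value. The count of members with a peak was 27 when the peak had to overlap the body and within 1, 5 and 10 kb. The counts of ligands, receptors and modulators were also the same at these distances. For the other pathway genes the count was 19 by the main rule and 20 within 5 kb. When only peaks scoring the list median or more were used, 22 members kept a peak: 14 ligands, all 4 receptors and 4 modulators, so that the modulators moved from 7 to 4, and all protein-coding genes moved from 2833 to 1567. With scores at least double the lowest, 26 members had a peak, and Wnt5b did not. By the start rule 26 members had a peak, and 24 where it had to cover the start, or either end for the 16 genes without strand. The median covered length was 2787 bp with overlapping peaks only. The alternatives for CpG content were not run, as too few members have a promoter sequence. No paired analysis was possible because each group has 1 library and only 1 of them was analysed. Depth is unknown, so weak peaks and absent ones cannot be told apart.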
